A study of Mus musculus with 12 samples.

Results

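The core cardiac transcription factors described here were Gata4, Gata5, Gata6, Nkx2-5, Mef2c, Hand1, Hand2 and Myocd, 8 of the 19057 genes with a probe on the arrays. Members were taken by gene symbol, and each gene was read through its probe of highest mean intensity over the 12 arrays, so that 8 of 17 member probes carried the values below. Expression was profiled in mouse embryos at embryonic day 10 (E10) and 9 (E9), in the ventricle and in the atrioventricular canal (AVC). The AVC is the segment between atria and ventricles whose endocardium gives rise to the valve cushions. The labels call the ventricular tissue LV, and the extraction protocol calls it the primary ventricle. The groups were AVC E10, LV E10, AVC E9 and LV E9, with 3 arrays each. The labels give no treatment or genetic change, and no strain, sex, litter or number of pooled embryos was given. The p-values therefore measure only how these RNA samples vary, and that variation may be partly technical. The tissues were dissected whole, with muscle, endocardium and cushion cells together, and fewer cells of a type and less RNA per cell cannot be told apart in such samples.

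These 8 genes encode DNA-binding proteins or coactivators that switch on the heart muscle program. Gata4, Gata5 and Gata6 are zinc-finger factors that bind GATA motifs. Nkx2-5 is the NK2 homeodomain factor of heart progenitors and of conduction tissue, and Mef2c is a MADS-box factor of muscle genes. Hand1 and Hand2 are basic helix-loop-helix factors that are known for a left and a right ventricular bias in the mouse. Myocd (myocardin) binds no DNA itself and acts as the coactivator of serum response factor at CArG boxes. GATA factors and Nkx2-5 bind each other and share target promoters such as that of Nppa, which encodes atrial natriuretic peptide.

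Promoter windows of 4 genes described below are shown from the promoter table of RefSeq (GRCm38.p6), since GATA and NK2 factors are themselves among the members. Each window runs 5′ to 3′ on the gene's strand, from 250 bases before the start of transcription to 50 bases after it. Capitals mark GATA motifs (GATA with A or T before it and A or G after it) and NK2 motifs (TNAAGTG), searched on both strands. Gata5 and Hand2 are members, and Nppa and Nppb encode natriuretic peptides of heart muscle that were lower in the AVC.
Gata5 (chr2:180334630-180334929, minus strand): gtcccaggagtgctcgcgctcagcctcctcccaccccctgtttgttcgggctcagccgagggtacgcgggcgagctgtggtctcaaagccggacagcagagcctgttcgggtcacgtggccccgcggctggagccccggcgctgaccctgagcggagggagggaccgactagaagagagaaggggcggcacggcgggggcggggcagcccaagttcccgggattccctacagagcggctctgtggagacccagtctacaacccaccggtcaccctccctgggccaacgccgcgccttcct
Hand2 (chr8:57320733-57321032, plus strand): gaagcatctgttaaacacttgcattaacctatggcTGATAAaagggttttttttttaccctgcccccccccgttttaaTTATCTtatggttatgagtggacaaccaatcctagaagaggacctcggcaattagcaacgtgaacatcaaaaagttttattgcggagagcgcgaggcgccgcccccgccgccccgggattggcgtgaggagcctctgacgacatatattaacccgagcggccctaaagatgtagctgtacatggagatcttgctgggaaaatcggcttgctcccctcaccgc
Nppa (chr4:148000472-148000771, plus strand): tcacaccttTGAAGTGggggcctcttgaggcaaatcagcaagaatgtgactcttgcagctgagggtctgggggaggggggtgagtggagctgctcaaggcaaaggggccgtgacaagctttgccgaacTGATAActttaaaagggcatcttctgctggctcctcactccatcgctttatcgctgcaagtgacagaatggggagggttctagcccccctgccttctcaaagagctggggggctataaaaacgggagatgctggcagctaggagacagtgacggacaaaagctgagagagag
Nppb (chr4:147985650-147985949, plus strand): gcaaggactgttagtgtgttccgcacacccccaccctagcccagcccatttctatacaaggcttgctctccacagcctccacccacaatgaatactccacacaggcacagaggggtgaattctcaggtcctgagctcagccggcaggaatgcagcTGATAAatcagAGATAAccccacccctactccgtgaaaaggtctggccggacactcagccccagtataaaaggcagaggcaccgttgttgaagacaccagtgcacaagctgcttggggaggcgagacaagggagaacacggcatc

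The Hand2 and Nppb windows each held 2 GATA motifs, the Nppa window held 1 GATA motif and 1 NK2 motif, and the Gata5 window held neither. Over all 32851 windows of this length, 29.8% held a GATA motif and 11.5% held an NK2 motif. The table matched 4 of the 8 members, the others being Nkx2-5 and Mef2c, whose windows held neither motif and are not printed. These are matches of letters and not measured binding sites.

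The deposited intensities had been scaled so that every array averaged 386.26 over its probes. A value was taken as above background when it exceeded the size of the most negative value of its array, a limit of 22.4 to 29.6. All 8 members were above this limit on all 3 arrays of at least 1 group, 7 of them on all 12 arrays. Hand1 was the exception and read 9.19 on replicate 2 of AVC E10. Comparisons used log2 intensities in a limma model with 4 group means over all 19057 genes, with Benjamini-Hochberg adjustment, and calls were made where the adjusted p lay under 0.05. Some arrays stood close to another group. LV E10 replicate 1 had a mean correlation of 0.933 with the other arrays of its group and was nearest to an LV E9 array (r = 0.969), and replicate 2 of AVC E9 and replicate 1 of AVC E10 were each other's nearest array (r = 0.979). LV E10 replicate 1 also had the highest summed markers of some cell types in its group and the lowest of others. The sum over 6 hepatic markers was 2814 on that array, beside 574 and 137 on replicates 2 and 3 of LV E10. That over 6 erythroid markers was 136475, beside 102650 and 86175, and the cushion mesenchyme and endoderm sums were also highest. The 5 markers of atrium and sinus venosus summed to 32660, beside 22638 and 22411. Most of that sum was Myl4, which read 30509 to 34915 on the LV E9 arrays. LV E10 replicate 1 had the lowest sums of its group for epicardium (2954, beside 5317 and 6679) and endothelium markers (7750, beside 9599 and 9356). By mean log2 intensity of the same genes it was again lowest for epicardium (6.96, beside 7.09 and 7.91). For endothelium it was then highest (8.98, beside 8.88 and 8.90). Its sums over neural crest (2846, beside 3895 and 4046) and myocardium markers (21589, beside 28024 and 27570) were also lowest. Most of the neural crest sum was Ednrb, which averaged 3559 in LV E10. By mean log2 intensity the array was highest for neural crest markers (4.43, beside 3.15 and 3.81). It then lay between the others for myocardium markers (11.62, beside 11.44 and 11.67). The part of these cell types in the Gata4 and Hand2 values that turned on this array was not tested. Values without one of these arrays are given where it changed the call of a member.

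**Figure D1:**
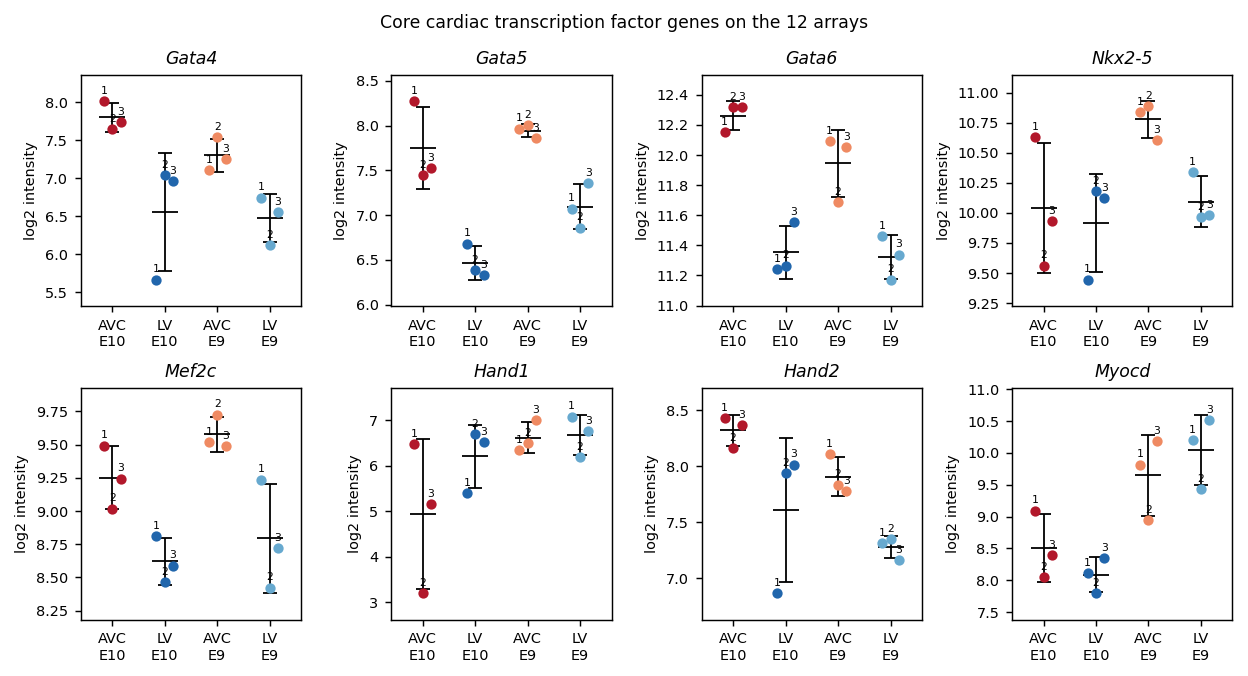
Log2 intensity (vertical axes, a separate scale for each gene) of the 8 members on every array, with replicate numbers beside the points and black bars for the group mean ± SD (n = 3). The AVC points of Gata4, Gata5 and Gata6 lie above the LV points of the same age at both ages, and Myocd lies lowest in LV E10.

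The 3 GATA genes were all higher in the AVC at both ages, and Gata5 and Gata6 were the only members called at a single age, E10. At E10, Gata6 read 4556, 5104 and 5104 on the AVC arrays, against 2420, 2461 and 3005 on the LV arrays. At E9, it read 4370, 3302 and 4249 on the AVC arrays, against 2816, 2307 and 2590 on the LV arrays. Every AVC array lay above every LV array. Gata6, a factor of heart muscle and endocardium, was 1.88-fold higher in AVC at E10 (log2 difference 0.91 ± 0.13, SE; limma adjusted p = 0.0145) and 1.54-fold higher at E9 (0.62 ± 0.13), where its adjusted p of 0.0746 missed the threshold. Averaged over both ages, the difference was 1.70-fold (adjusted p = 0.00348). A second, dim Gata6 probe, above background on 11 arrays, gave log2 differences of 1.35 at E10 and 0.23 at E9.

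Gata5, known for endocardial differentiation, read 309, 174 and 184 on the AVC E10 arrays, against 103, 83.8 and 80.4 on the LV E10 arrays. At E9, it read 249.9, 256 and 233 on the AVC arrays, against 135, 116 and 164 on the LV arrays. The groups did not overlap at either age. The difference was 2.43-fold at E10 (log2 1.28 ± 0.22, SE; limma adjusted p = 0.0271), 1.80-fold at E9 (log2 0.85 ± 0.22, adjusted p = 0.138) and 2.09-fold averaged over both ages (adjusted p = 0.00709).

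Gata4, which heart tube formation and cushion growth require in the mouse, read 258, 201 and 214 on the AVC E10 arrays, against 50.7, 131 and 124 on the LV E10 arrays. The E9 values were 138, 186 and 152 on the AVC arrays, against 107, 69.6 and 94.1 on the LV arrays. The groups again did not overlap, but LV E10 replicate 1 lay far below its 2 companions. The log2 difference was 1.25 ± 0.35 (SE) at E10 and 0.83 ± 0.35 at E9, with limma adjusted p of 0.125 and 0.406. Averaged over both ages it was 2.05-fold (log2 1.04 ± 0.25, adjusted p = 0.0479). Without LV E10 replicate 1 the log2 difference was 0.80 at E10 (adjusted p = 0.0786) and 0.81 averaged (adjusted p = 0.0141). The averaged call was lost in 9 of the 12 fits that left out 1 array, with quantile normalization (adjusted p = 0.180), with 75th percentile scaling (0.16) and with the mean over all probes (0.0593).

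Mef2c read 721, 518 and 606 on the AVC E10 arrays, against 449, 353 and 385 on the LV E10 arrays. The E9 values were 732, 847 and 718 on the AVC arrays, against 603, 343 and 423 on the LV arrays. The groups did not overlap within an age. Mef2c was 1.63-fold higher in AVC averaged over both ages (log2 0.71 ± 0.15, SE; limma adjusted p = 0.0282), with log2 differences of 0.63 at E10 and 0.78 at E9 that did not pass the test (adjusted p = 0.189 and 0.143). The averaged call was lost with quantile normalization (adjusted p = 0.0646), 75th percentile scaling (0.103) and the mean over all probes (0.187). A second Mef2c probe above background on all 12 arrays gave log2 differences of 0.65 at E10 and 0.82 at E9.

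Hand2 read 346, 287 and 330.1 on the AVC E10 arrays, against 117, 246 and 259 on the LV E10 arrays. The E9 values were 276, 229 and 220 on the AVC arrays, against 159, 163 and 144 on the LV arrays. The groups did not overlap within an age, but no comparison passed the test with all arrays and the settings used throughout, and the averaged log2 difference was 0.67 ± 0.19 (SE; limma adjusted p = 0.0899). The average passed when 32 was added to each value before the log2 (log2 0.58, adjusted p = 0.0408) and among genes above background only (0.0405). Without LV E10 replicate 1, the lowest array of its group, Hand2 passed the averaged test at log2 0.49 (adjusted p = 0.0124) and the test at E9 at log2 0.63 (adjusted p = 0.0301).

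Nkx2-5 was higher in AVC at E9 without overlap but did not pass the test. It read 1835, 1891 and 1556 on the AVC E9 arrays, against 1294, 999.7 and 1010 on the LV E9 arrays (log2 0.68 ± 0.29, SE; limma adjusted p = 0.402). At E10, the AVC arrays read 1585, 756 and 976, against 697, 1159 and 1113 on the LV arrays, and the groups overlapped (log2 0.13 ± 0.29, adjusted p = 1). The sign at E10 turned when replicate 1 of AVC E10 (log2 -0.17) or of LV E10 (log2 -0.11) was left out.

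Hand1 and Myocd overlapped between the tissues at both ages. Hand1 read 89.5, 9.19 and 35.7 on the AVC E10 arrays, against 42.4, 104 and 91.8 on the LV E10 arrays, a log2 difference of -1.26 with a 95% confidence interval of -2.95 to 0.43 (limma adjusted p = 0.541). At E9, Hand1 read 81.6, 90.1 and 128 on the AVC arrays, against 136, 73.4 and 109 on the LV arrays (log2 -0.06 ± 0.74, SE). Without replicate 2 of AVC E10, the array with Hand1 below background, the E10 difference was -0.39 ± 0.53, and without replicate 1 of AVC E10 it was -2.03. Myocd had log2 differences of 0.42 at E10 and -0.40 at E9, with adjusted p of 0.748 and 0.843.

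Counted together, 2 of the 8 members were called higher in AVC at E10 (Gata5 and Gata6), against 2.09% of all genes tested called higher and 2.34% called in either direction. At E9, 0 members were called by limma, against 1.12% of all genes, and 6 had an unadjusted p under 0.05, against 11.7% of all genes. Averaged over both ages, 4 members were called higher (Gata4, Gata5, Gata6 and Mef2c), against 4.86% of all genes called higher and 5.57% called in either direction. The AVC arrays lay above all LV arrays for 5 members at E10 and 6 at E9, against 13.1% and 11.8% of all genes. For the 3 GATA genes all 6 AVC arrays lay above all 6 LV arrays of both ages, against 2.36% of all genes. The median log2 difference of the members was 0.67 at E10, 0.66 at E9 and 0.69 averaged, beside 0.18, 0.08 and 0.13 over the 9931 genes above background in at least 1 group. When each array was scaled to its 75th percentile instead, the medians of those genes became -0.07, -0.07 and -0.07, and the log2 differences at E10 were 1.02 for Gata5, whose E10 call was lost (adjusted p = 0.0693), and 0.65 for Gata6, whose call held. The GATA genes, Mef2c and Hand2 stayed higher in AVC under every alternative tried.

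**Figure D2:**
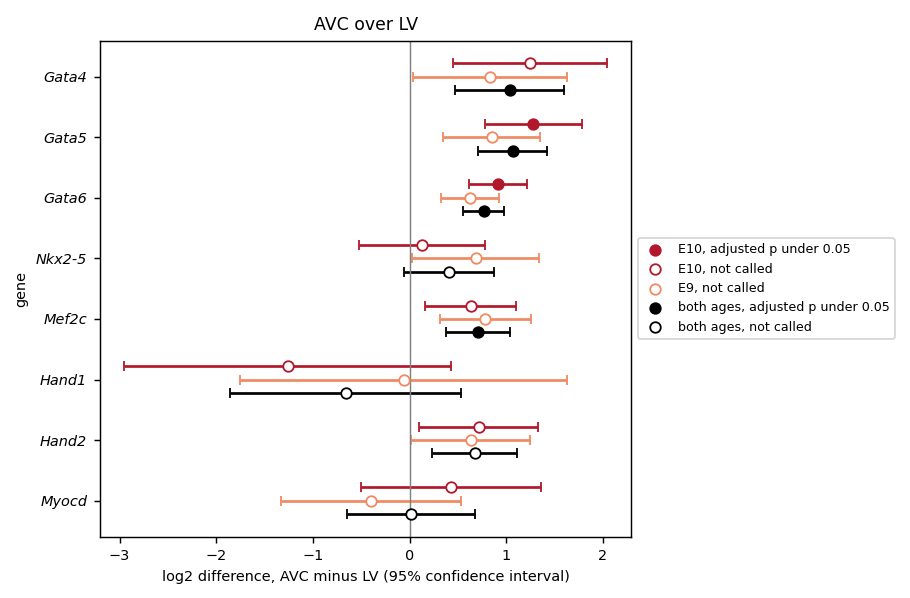
Log2 difference, AVC minus LV, of each member (horizontal axis) with its 95% confidence interval at E10, at E9 and averaged over both ages, with filled points for an adjusted p under 0.05. The GATA genes, Mef2c and Hand2 lie to the right of 0 in all 3 comparisons, and the intervals of Hand1 and Myocd include 0.

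Markers of other cell types also differed between the tissues. Of 7 cushion mesenchyme markers, 3 (Twist1, Pdgfra and Snai1) were called higher in AVC at each age. Their summed intensity over the 7 genes ran from 6346 to 7403 on the AVC E10 arrays, against 1140 to 2189 on the LV E10 arrays, and from 3718 to 5456 on the AVC E9 arrays, against 1287 to 1603 on the LV E9 arrays. Of 5 markers of atrium and sinus venosus with a probe, 2 were called higher in AVC at E10 (Shox2 and Stard10) and 2 at E9 (Nr2f2 and Stard10). Myocardium markers (5 of 6 with a probe, all above background on all 12 arrays) had 0 called by limma at either age, with 1 lower at E10 at an unadjusted p under 0.05, and summed to 17382 to 24199 on the AVC E10 arrays, against 21589 to 28024 on the LV E10 arrays, and to 24260 to 30672 on the AVC E9 arrays, against 25414 to 30812 on the LV E9 arrays. Of 8 endothelium markers, 0 were called at either age by limma, and averaged over both ages 1 was called higher and 1 lower. At an unadjusted p under 0.05, 1 was higher and 2 lower at E10, and 2 were higher and 3 lower at E9. In either direction, 11.7% of all genes passed at E9. At E10 between 2061 and 4407 of all 19057 genes did, by the p ranks of Hand2 and Hand1. Kdr, another of the 8, was above background on no array. Of 7 endoderm markers, 0 were called by limma at either age or averaged. They summed to 789 to 2458 on the AVC E10 arrays, against 852 to 1769 on the LV E10 arrays. At E9 the sums were 2834 to 4919 on the AVC arrays, against 1423 to 3175 on the LV arrays. The part of these cell types in the differences of the members was not tested.

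The calls of single genes depended on which array was left out of the fit. Averaged over both ages, Gata5 and Gata6 stayed called in each of the 12 fits that left out 1 array, with adjusted p up to 0.0235 and 0.0136. At E10, the Gata5 call was lost without AVC replicate 3 (adjusted p = 0.0696), LV replicate 2 (0.0927) or LV replicate 3 (0.0711), at log2 differences of 1.39, 1.24 and 1.21. The E10 call of Gata6 was lost without AVC replicate 2 (0.0562), AVC replicate 3 (0.0687) or LV replicate 2 (0.0564), at log2 differences of 0.88, 0.88 and 0.87. The averaged calls of Gata4 and Mef2c were each lost in 9 of 12 such fits. That of Gata4 held only when an LV E10 array was the one left out, with adjusted p up to 0.115 otherwise and log2 differences of 0.81 to 1.16. That of Mef2c held only without LV E9 replicate 1, AVC E10 replicate 2 or LV E10 replicate 1, with adjusted p up to 0.0712 otherwise and log2 differences of 0.61 to 0.82. Conversely, a member passed the test at E9 when 1 array was left out in 4 cases, namely Gata6 without AVC E9 replicate 2 (0.0458), Mef2c without LV E9 replicate 1 (0.0488), Gata5 without AVC E10 replicate 1 (0.0384) and Hand2 without LV E10 replicate 1.

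**Figure D3:**
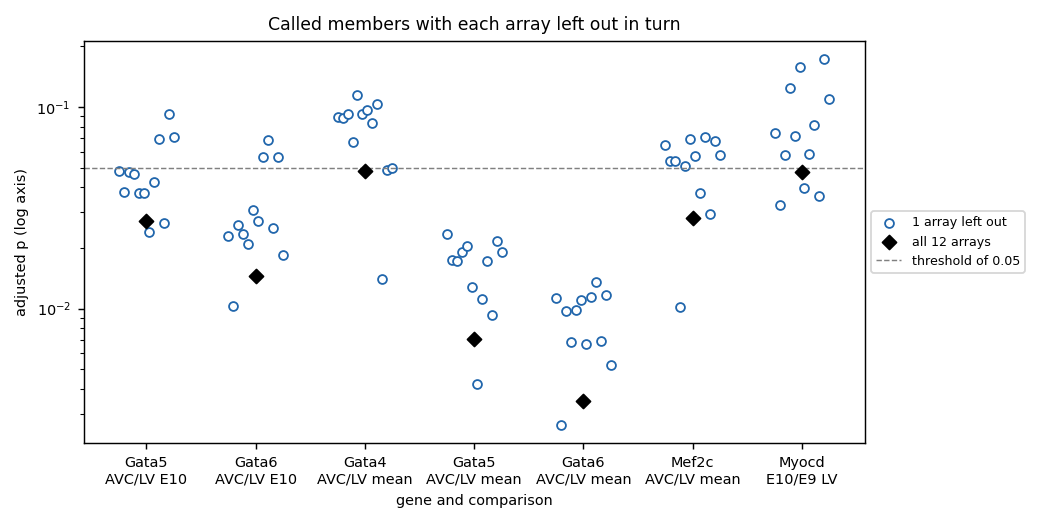
Adjusted p (vertical log axis) of each member call with all 12 arrays (diamonds) and with each array left out in turn (open circles, 12 per gene), with the threshold of 0.05 as a dashed line. For the mean over both ages, all circles of Gata5 and Gata6 lie below the line, and 9 of 12 circles lie above it for Gata4, for Mef2c and for Myocd in LV.

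Between the ages, Myocd was the only member called. In LV, Myocd read 277, 223 and 325 on the E10 arrays, against 1177, 692 and 1456 on the E9 arrays, without overlap. It was 3.90-fold lower at E10 (log2 -1.96 ± 0.41, SE; limma adjusted p = 0.0475). In AVC, it read 547, 264 and 335 on the E10 arrays, against 901, 492 and 1166 on the E9 arrays, where AVC E9 replicate 2 fell below AVC E10 replicate 1. The log2 difference in AVC was -1.14 ± 0.41 and did not pass the test (adjusted p = 0.276). All 5 Myocd probes had lower E10 means in both tissues, although 3 of them were not above background on every array, and the second probe above background on all 12 arrays gave log2 differences of -1.90 in LV and -1.27 in AVC.

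In LV, 1 of 8 members was called lower at E10, against 1.07% of all genes called lower and 2.52% called in either direction. In AVC, 0 members were called by limma, against 0.556% of all genes, and 3 had an unadjusted p under 0.05, against 12.6% of all genes. The Myocd call in LV held in 3 of the 12 fits that left out 1 array, namely without AVC E9 replicate 2, AVC E10 replicate 1 or LV E10 replicate 1, with adjusted p up to 0.173 otherwise and log2 differences of -2.27 to -1.73. Gata5 was also lower on every E10 array than on every E9 array in LV (log2 -0.63 ± 0.22, adjusted p = 0.16), so that 2 members did not overlap downward, against 12.3% of all genes. Hand2 had a log2 difference of 0.33 ± 0.27 in LV with all arrays (adjusted p = 0.555), and without LV E10 replicate 1 it was called higher at E10 (log2 0.70, adjusted p = 0.0112).

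Markers of the epicardium, which covers the heart between these ages, differed by age as well. Of 6 with a probe, 2 were called higher at E10 in LV (Upk3b and Tcf21) and 1 in AVC (Upk1b), and their sum ran from 2954 to 6679 on the LV E10 arrays, against 318 to 921 on the LV E9 arrays. In LV, 1 of 8 endothelium and 1 of 5 neural crest markers were also called higher at E10, against 2.52% of all genes called in either direction. At an unadjusted p under 0.05, 4 endothelium markers were higher at E10 in LV and 5 in AVC. In either direction, 12.6% of all genes passed in AVC. In LV between 2401 and 8757 of all 19057 genes did, by the p ranks of Gata5 and Hand2. Of 5 myocardium markers, 0 were called by age in LV by limma, with 2 lower at an unadjusted p under 0.05. The part of these cells in the Myocd difference was not tested.

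In AVC, Gata4, Gata6 and Hand2 read higher on every E10 array than on every E9 array, against 10.2% of all genes, and none passed the limma test. Their log2 differences were 0.50 ± 0.35, 0.32 ± 0.13 and 0.41 ± 0.27 (SE), with adjusted p of 0.638, 0.361 and 0.635. Nkx2-5 had a log2 difference of -0.74 ± 0.29 in AVC (adjusted p = 0.323) and Hand1 one of -1.67 ± 0.74 (adjusted p = 0.403), both with overlapping arrays. The Hand1 value was -0.80 without AVC E10 replicate 2. The difference between the tissues was also tested against age as an interaction. It was called for 0 members, against 0.0315% of all genes, and 0 members had an unadjusted p under 0.05, against 4.81% of all genes. For Myocd the interaction was 0.82 with a 95% confidence interval of -0.50 to 2.14, so that the smaller difference in AVC was not shown to differ from that in LV.

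**Figure D4:**
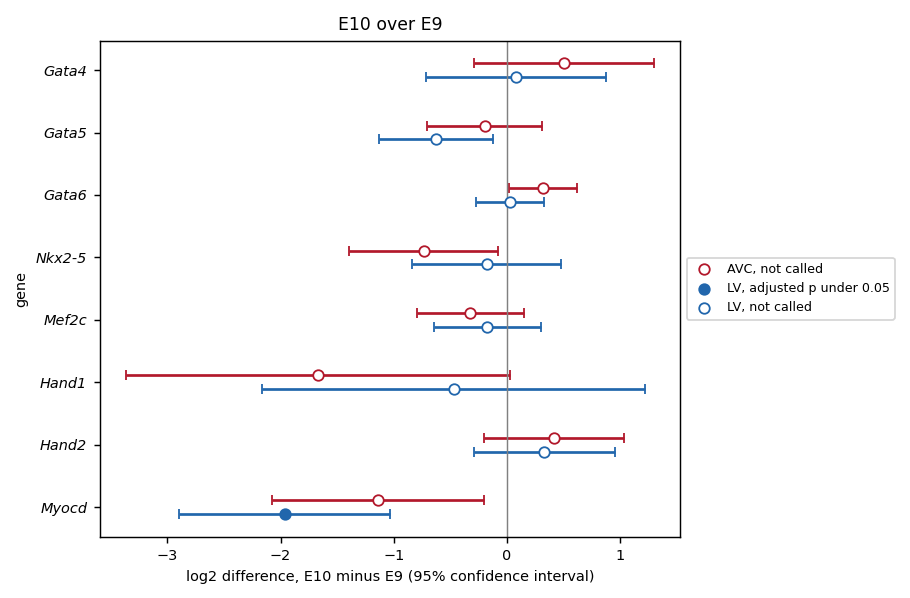
Log2 difference, E10 minus E9, of each member (horizontal axis) with its 95% confidence interval in AVC and in LV, with filled points for an adjusted p under 0.05. Myocd in LV is the only filled point, at -1.96.

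Ordered by mean log2 intensity, the groups fell into a few patterns. Gata4 and Gata6 ran AVC E10, AVC E9, LV E10 and LV E9 from high to low, and only the LV groups overlapped each other among neighbours. Hand2 had the same order, with overlap of AVC E9 with LV E10 and of LV E10 with LV E9. Gata5 ran AVC E9, AVC E10, LV E9 and LV E10, with overlap between the AVC groups only. Mef2c had the order of Gata5, and every neighbouring pair of groups overlapped. Nkx2-5 was highest in AVC E9 and lowest in LV E10, with LV E9 above AVC E10 by the mean log2 intensity, and among neighbours only AVC E9 and LV E9 did not overlap. Hand1 and Myocd, both highest in LV E9, overlapped between all neighbours.

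The genes whose log2 intensities were most like those of a member over the 12 arrays were sought among those above background on all 12 arrays (8340 genes, or 8339 where the member itself was 1 of them). The nearest was Gpr107 for Gata4 (Pearson r = 0.979), Grhl1 for Gata5 (0.963), Mex3a for Gata6 (0.982), Mapk12 for Nkx2-5 (0.968), Gnb4 for Mef2c (0.926), Fgf13 for Hand1 (0.937), Ttc8 for Hand2 (0.983) and Kdm1b for Myocd (0.989). The next 2 genes were Rhob and Nme7 for Gata4, Katnbl1 and Phlda1 for Gata5, Zswim4 and Npr2 for Gata6, Pigu and Rab4a for Nkx2-5, Slc12a7 and Ppargc1a for Mef2c, Irx4 and C1qbp for Hand1, Trp53i13 and Fcsk for Hand2, and Fut4 and Tamm41 for Myocd, with r from 0.919 to 0.977. These correlations are descriptions over 12 arrays that share 4 groups and array-wide differences in brightness.

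Relatives of the members in the same families were mostly dim or alike in both tissues. Of 10 relatives listed, 9 had a probe and 5 were above background on all arrays of a group. Gata3 was the only one called, always higher in AVC, against 2.34% of all genes called at E10 and 1.12% at E9. At E10, Gata3 read 162, 131 and 185 on the AVC arrays, against 44.1, 26.3 and 24.1 on the LV arrays (log2 2.37 ± 0.24, SE; limma adjusted p = 0.00451). At E9, it read 201, 133 and 180 on the AVC arrays, against 60.0, 61.9 and 59.8 on the LV arrays (log2 1.48 ± 0.24, adjusted p = 0.0319). The E9 call was lost in 8 of the 12 fits that left out 1 array, all but those without AVC E9 replicate 2, AVC E10 replicate 2, LV E10 replicate 1 or LV E10 replicate 3, with adjusted p up to 0.113 and log2 differences of 1.35 to 1.65. The E10 call held in all 12. With only the groups of the contrast in the fit, both calls were lost (limma adjusted p = 0.0684 at E9 and 0.0813 at E10).

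Among the partners and cofactors of the members, 19 of 21 listed genes had a probe. Of these, 3 were called higher in AVC at E10 and 4 averaged over both ages, against 2.09% and 4.86% of all genes. At E9, 0 were called by limma, against 1.12% of all genes, and 7 had an unadjusted p under 0.05, against 11.7%. The median log2 difference of the partners was 0.51 at E10, 0.48 at E9 and 0.44 averaged. Over all genes above background it was 0.18, 0.08 and 0.13. Nfatc4, a calcineurin-regulated factor that binds Gata4, read 530.1, 987 and 861 on the AVC E10 arrays, against 213, 142 and 136 on the LV E10 arrays (log2 2.26 ± 0.31, SE; limma adjusted p = 0.0131). Nfatc1, required for valve formation in endocardium, read 507, 634 and 491 on the AVC E10 arrays, against 173, 223 and 242 on the LV E10 arrays (log2 1.36 ± 0.19, adjusted p = 0.0129). Tcf12, a helix-loop-helix partner of the Hand proteins, read 452, 488 and 538 on the AVC E10 arrays, against 256, 199 and 171 on the LV E10 arrays (log2 1.26 ± 0.16, adjusted p = 0.00910).

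The E10 calls of Nfatc1 and Tcf12 held in all 12 fits that left out 1 array, and that of Nfatc4 was lost without AVC E10 replicate 3 (log2 2.18, adjusted p = 0.0583) or LV E10 replicate 2 (log2 2.17, adjusted p = 0.0514). The Nfatc1 call was lost with 75th percentile scaling (limma adjusted p = 0.059). That of Tcf12 was lost with the mean over all probes, at E10 (0.105) and averaged (0.0737). With only the groups of the contrast in the fit, the E10 calls of Nfatc1, Tcf12 and Nfatc4 were all lost (adjusted p up to 0.0989). Averaged over both ages, the log2 differences were 1.94 for Nfatc4, 0.92 for Nfatc1 and 0.90 for Tcf12. Tbx20, a T-box factor that works with Gata4 and Nkx2-5, was called for the average only (log2 1.24 ± 0.25, adjusted p = 0.0253). That call was lost in 8 of 12 such fits, all but those without AVC E9 replicate 2, LV E9 replicate 1, AVC E10 replicate 2 or LV E10 replicate 1, at log2 differences of 1.12 to 1.47 and adjusted p up to 0.0679. By age, 0 of the 19 partners were called in limma's tests of AVC or of LV, against 0.556% and 2.52% of all genes. At an unadjusted p under 0.05 there were 5 in AVC, against 12.6% of all genes, and 3 in LV. Foxh1, a forkhead partner of Nkx2-5 at the Mef2c gene in the mouse, was chosen here after its values were seen. It was above background on none of the 6 E10 arrays and on all 6 E9 arrays. In AVC it read 18.3, -6.62 and -5.59 on the E10 arrays, against 77.2, 131 and 99.5 on the E9 arrays, and in LV 7.81, -9.44 and -8.60 on the E10 arrays, against 49.0, 67.4 and 87.3 on the E9 arrays. Its E10 level was at least 4.08-fold lower in AVC and at least 2.64-fold lower in LV, measured against the background limit, and neither change passed the test (adjusted p = 0.0984 and 0.0646).

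Muscle genes that are known targets of the members were called in the AVC only as lower. Of 24 listed, 20 had a probe, and 0 were called higher in AVC by limma. Called lower were 2 at E10, 1 at E9 and 2 averaged, against 2.34%, 1.12% and 5.57% of all genes in either direction. At an unadjusted p under 0.05, 2 were higher and 4 lower at E10, and 4 higher and 7 lower averaged over both ages. At E9, 0 were higher and 7 lower, against 11.7% of all genes in either direction. The median log2 difference of the targets was -0.02 at E10 and 0.06 at E9. Among those above background it was -0.07 and 0.06, beside 0.18 and 0.08 over all such genes. The natriuretic peptide genes were called lower. Nppa read 12894, 10970 and 8062 on the AVC E10 arrays, against 28752, 27200.2 and 24015 on the LV E10 arrays (log2 -1.35 ± 0.21, SE; limma adjusted p = 0.0208). At E9, it read 8264, 10166 and 5909 on the AVC arrays, against 26486, 25988 and 26091 on the LV arrays (log2 -1.73 ± 0.21, adjusted p = 0.0133). Nppb read 2777, 1972 and 3002 on the AVC E10 arrays, against 7094, 12926 and 16079 on the LV E10 arrays (log2 -2.16 ± 0.31, adjusted p = 0.0137).

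The E9 call of Nppa held in all 12 fits that left out 1 array. Its E10 call was lost without AVC E10 replicate 2 (log2 -1.38, adjusted p = 0.0595), AVC E10 replicate 3 (log2 -1.16, 0.0689) or LV E10 replicate 2 (log2 -1.33, 0.0704), and that of Nppb without LV E10 replicate 2 (log2 -2.07, 0.0552). For Nppb at E9 the value was -1.46 on the log2 scale (adjusted p = 0.0742). With only the groups of the contrast in the fit, the Nppa calls were lost at E9 (limma adjusted p = 0.077) and E10 (0.107). The E10 call of Nppb was then lost too (0.13). By age, Tagln was the only target called. Tagln encodes the smooth muscle protein transgelin, whose gene holds CArG boxes that serum response factor and Myocd use. It read 79.5, 128 and 119.7 on the LV E10 arrays, against 336, 258 and 367 on the LV E9 arrays (log2 -1.57 ± 0.23, adjusted p = 0.0205), and with the mean over all probes of the gene the log2 difference was -0.79 (adjusted p = 0.0228). A relation to the Myocd level was not tested. The Tagln call was lost without LV E9 replicate 1 (log2 -1.53, 0.0547), LV E9 replicate 3 (log2 -1.47, 0.0745) or LV E10 replicate 2 (log2 -1.70, 0.0531). It was also lost with only the LV groups in the fit (limma adjusted p = 0.0944).

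**Figure D5:**
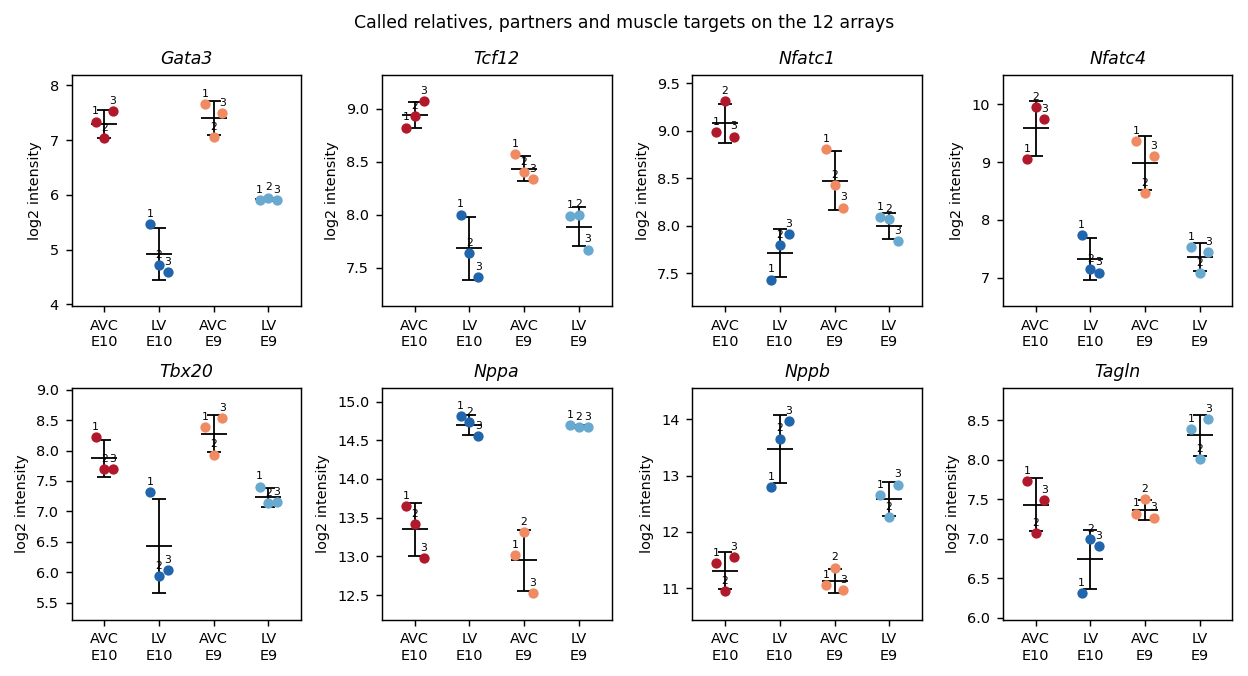
Log2 intensity (vertical axes, a separate scale for each gene) of the relatives, partners and muscle targets called in any comparison, on every array, with black bars for the group mean ± SD (n = 3) and replicate numbers beside the points. Gata3, Tcf12, Nfatc1, Nfatc4 and Tbx20 lie higher in AVC than in LV of the same age, Nppa and Nppb lie lower, and Tagln is lowest in LV E10.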

How the data were processed

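RNA from 12 dissected mouse tissues (AVC and LV at E10 and E9, 3 arrays each) was hybridised to Illumina mouse BeadChips. The deposited values were linear intensities from which background had been subtracted, so that 34.7% lay below 0, and the authors or their software had scaled each array to a mean of 386.26. The methods name GeneSpring for analysis, and no source used here gives the program behind the deposited intensities. Probes were named through the platform annotation, which gave 1 gene for 34885 of 45281 probes, several for 18 and none for 10378. Values under 1 were set to 1 and taken to log2, and each gene was read through its probe of highest mean. All 19057 genes were fitted with limma 3.58.1 (lmFit and eBayes, R 4.3.3) with 4 group means and no covariates, and p-values were adjusted by Benjamini-Hochberg over all genes of a contrast. The code was tested on simulated data. The 8 members were always named. In the lists of relatives, partners and muscle targets, genes called in a tissue or age contrast were named, and for likeness the 3 genes of highest Pearson r. The members and lists were chosen with earlier results of these data known. Alternatives covered the offset, scaling, filter, probe choice, samples in the fit, replicate block, the 4-fold and p 0.01 thresholds of the methods, and each array left out. The number of arrays limits the precision. No pair of arrays held identical values.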

Additional observations from a re-analysis of the deposited data

Results flagged for a closer look

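Tagln stood out because its AVC arrays lay above the LV arrays at E10 and below them at E9, without overlap at either age. It read 212, 135 and 180.1 on the AVC E10 arrays, against 79.5, 128 and 119.7 on the LV E10 arrays, and 159, 182 and 154 on the AVC E9 arrays, against 336, 258 and 367 on the LV E9 arrays. The log2 difference between the tissues was 0.69 ± 0.23 (SE) at E10 and -0.95 ± 0.23 at E9, and neither passed the test (limma adjusted p = 0.191 and 0.111). The difference of these differences was 1.64 on the log2 scale, with an unadjusted p of 0.00078 and a limma adjusted p of 0.420 over all genes, so that it did not pass the threshold.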

How the results depend on the processing

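The averaged calls of Gata5 and Gata6 held in all fits with 1 array left out and in the other alternatives except Gata6 with the mean over all probes (adjusted p = 0.0562) and the 4-fold threshold, which neither reached. With 1 array left out, the count of members called ran from 0 to 2 at E10 (2 with all arrays), 0 to 1 at E9 (0), 2 to 5 averaged (4), 0 to 0 for age in AVC (0), 0 to 2 for age in LV (1) and 0 to 0 for the interaction (0). The count of genes called ran from 100 to 765 at E10 (445), 71 to 443 at E9 (213), 600 to 1392 averaged (1062), 27 to 495 for age in AVC (106), 54 to 2678 for age in LV (480) and 7 to 43 for the interaction (6). Differences near 0 changed sign in some of these fits. For AVC over LV the ranges were -0.31 to 0.14 for Hand1 at E9, -0.17 to 0.37 for Nkx2-5 at E10 and -0.14 to 0.19 for Myocd averaged. For E10 over E9 in LV they were -0.16 to 0.53 for Gata4, -0.070 to 0.098 for Gata6, -0.31 to 0.055 for Nkx2-5 and -0.36 to 0.047 for Mef2c. For the interaction they were -0.37 to 0.033 for Mef2c, -0.024 to 0.66 for Gata4 and -0.29 to 0.29 for Hand2.

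With quantile normalization, 280 genes and 1 member (Gata6) were called at E10, 2 members (Gata5 and Gata6) averaged and 70 genes for age in AVC, and Myocd averaged -0.12. With 75th percentile scaling, 285 genes and 1 member (Gata6) were called at E10, 2 members (Gata5 and Gata6) averaged and 739 genes for age in LV, with -0.13 for Nkx2-5 at E10, -0.19 for Myocd averaged and -0.028 for the Hand2 interaction. These scalings also moved the share of calls that were higher. At E10 it was 89.4% as reported, 69.3% with quantile normalization and 53.0% with 75th percentile scaling, at E9 82.6%, 65.2% and 49.3%, averaged 87.3%, 65.7% and 44.4%, for age in AVC 78.3%, 72.9% and 48.1%, and for age in LV 57.5%, 53.3% and 38.4%.

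With the mean over all probes of a gene, 276 genes and 1 member (Gata5) were called at E10, 1 member (Gata5) averaged and 0 members for age in LV by limma, with Myocd at -0.37 at E10 and -0.40 averaged and Gata6 at -0.60 for age in LV. With only the groups of a contrast in the fit, 93 genes and 0 members were called at E10, 91 genes at E9, 23 genes for age in AVC, and 88 genes and 0 members for age in LV. The 4-fold and p 0.01 thresholds gave 273 genes and 0 members at E10, 237 genes and 0 members averaged, 265 genes for age in AVC, 0 members for age in LV and 101 genes for the interaction. Among genes above background only, 347 were called at E9, 289 for age in AVC, 978 for age in LV and 2 for the interaction. With log2(value + 32), Gata4 was called at E10 (log2 0.99, adjusted p = 0.0364), and the counts were 438 for age in AVC, 821 for age in LV and 0 for the interaction. The cause of these shifts was not tested.

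Same-numbered arrays deviated together with correlations of -0.37 to 0.52 over 18 pairs, 9 of them over 0.1, and 8 of 12 arrays correlated best with their own number. Since the labels do not say what the number marks and not every pair was over 0.1, the numbers were not taken to pair the samples. With the replicate number as a block, 140 genes were called at E9, 70 for age in AVC, 842 for age in LV and 3 for the interaction, and Gata4 alone among the members lost its averaged call (adjusted p = 0.0857).

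Of the alternatives chosen after seeing the data, the variance estimated over all probes ended the Myocd call (0 members for age in LV, adjusted p = 0.0504) and the averaged Gata4 call (adjusted p = 0.0501). Without AVC E9 replicate 2 and LV E10 replicate 1 together, 1641 genes were called at E10, 360 genes and 1 member (Gata6) at E9, 2215 genes averaged, 1300 for age in AVC, 3702 genes and 2 members (Hand2 and Myocd) for age in LV and 67 for the interaction. Nkx2-5 was then at -0.11 for the tissues at E10 and 0.055 for age in LV, and the interaction was 0.018 for Mef2c and -0.32 for Hand2. The number of arrays limits the precision, and at E10 the SE of the log2 difference ran from 0.13 for Gata6 to 0.74 for Hand1.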
